A study of Mus musculus with 12 samples.

Results

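The response of Nat1-null mouse embryonic stem cells to 2i was measured by comparing 3 arrays of cells in 2i+LIF with 3 arrays of the same genotype in LIF alone, 6 of the 12 arrays of the study. The members were taken from the sample titles, and all genes on the array were compared. The other 6 arrays hold wild-type cells in the same pair of media, 3 arrays each. They are used here only to ask where the response differs between genotypes and to compare the level of Eif4g2. All cells were embryonic stem cell lines kept in standard medium on gelatin, and total RNA was labelled with Cy3 and hybridised to single-colour Agilent arrays. The labels do not say how the null allele was made, how many clones the 3 Nat1-null replicates represent, how long 2i was applied or whether replicates were separate cultures, and the p-values therefore reflect only how far these samples varied, which may be technical variation.

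Mouse embryonic stem cells are held in self-renewal by the cytokine LIF, which acts through STAT3. 2i is a pair of kinase inhibitors: 1 blocks MEK and with it the ERK signal downstream of FGF4, and the other blocks GSK3, which lets beta-catenin accumulate and relieves repression by Tcf7l1 (TCF3). In wild-type cells 2i is known for raising naive pluripotency factors and silencing lineage genes. Nat1 (also DAP5, gene symbol Eif4g2) is a translation initiation factor related to eIF4G that lacks the region by which eIF4G joins the cap-binding protein, and it is known to be needed for embryonic stem cells to differentiate.

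Signals are given as log2 units relative to the 75th percentile of the same array, so that 0 is that percentile and 1 unit is 2-fold. A gene is called where limma's adjusted p (Benjamini-Hochberg over 20848 genes) was below 0.05. A gene was tested where, in 1 medium or in both, its probe exceeded background clearly on each of the 3 arrays by the scanner software's test; 19143 of the 20848 did so on all 6 arrays, of which 27.2% were called. The 3 values of each medium did not overlap for 48.7% of all genes tested, and also for 48.7% of those 19143. All 6 arrays are on 1 slide, but LIF replicates 1 and 2 lie in its first row, while LIF replicate 3 and all 2i+LIF arrays lie in its second row. The mean of the negative control spots was -7.34 and -7.68 in the first row and between -16.4 and -10.2 in the second, where the scanner software marked it out of range. With the row as a block the difference rests on 2i+LIF against LIF replicate 3. Its part in the results was not tested otherwise. Where a named gene is said below to have risen or fallen, its adjusted p was also below 0.05 with the row as a block and with each array left out in turn, unless another value is given beside it.

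All 10 embryonic stem cell markers (Pou5f1, Sox2, Nanog, Sall4, Lin28a, Zfp42, Dppa4, Dppa5a, Tdgf1 and Utf1) were well above background on every array. Eif4g2 itself lay at 1.32, 1.26 and 1.25 on the LIF arrays and at 1.24, 1.28 and 1.42 on the 2i+LIF arrays. The wild-type means were 4.49 ± 0.05 (SD, n = 3) in LIF and 4.20 ± 0.10 (SD, n = 3) in 2i+LIF. The targeted transcript was therefore lower in Nat1-null cells in both media, and between their media it differed by 0.03 ± 0.07 (SE; adjusted p = 0.76). The 2 genotypes lie on separate slides, so genotype and slide cannot be told apart for this level. Of the 18 feeder fibroblast markers 6 (Col5a2, Col6a1, Col6a2, Postn, Lum and Dcn) stayed below the background test on each of the 6 arrays. The summed signal of those 18 markers, in multiples of the 75th percentile, was 249 to 292 in LIF and 364 to 394 in 2i+LIF.

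Many genes differed between the media in Nat1-null cells, and their number depended on the processing. In all, 5791 genes (27.8% of those tested) were called, 3299 (15.8%) higher and 2492 (12.0%) lower in 2i+LIF. At least 2-fold changes among them numbered 694 higher (3.33%) and 834 lower (4.0%). The median difference over all genes was 0.05. List counts below are to be read beside the 15.8% of all genes that rose and the 12.0% that fell. The number of calls fell with 1 array fewer: it was 3242, 3663 and 3166 without 2i+LIF replicate 1, 2 or 3, and 2931 and 3575 without LIF replicate 1 or 3, but 7067 without LIF replicate 2. Over the called genes LIF replicate 2 was the LIF array nearest to the 2i+LIF mean in 53.3%, against 18.8% for replicate 1 and 27.9% for replicate 3. With the row as a block 2359 genes were called, 2092 of them shared (1182 of these higher, 5.67% of all genes tested). All 5791 genes had the same sign within the second row, but LIF replicate 3 and the 2i+LIF arrays enter both differences. The shared sign therefore does not test the row. Of the 1528 genes changed at least 2-fold, 1100 (72.0%) were called with the row as a block as well. The split between higher and lower depended on the scaling: 57.0% of calls were higher here, 45.4% after quantile normalisation and 20.8% with no scaling, which moved the median of all genes to -0.14.

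**Figure D1:**
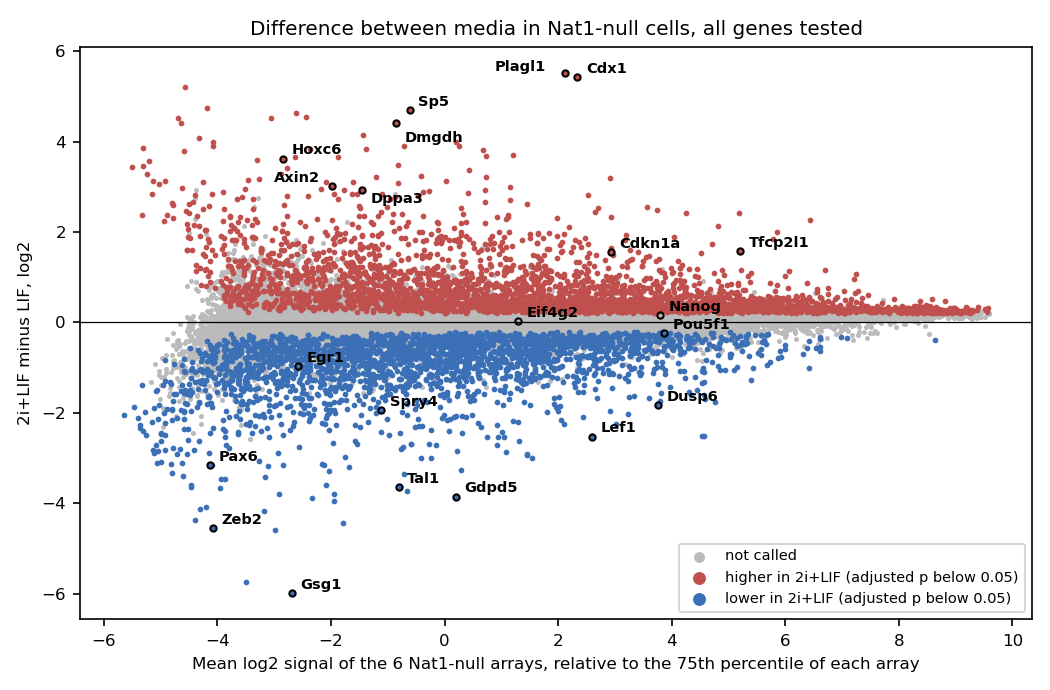
Difference between media (2i+LIF minus LIF, log2) against the mean signal (log2) of the 6 Nat1-null arrays for the 20848 genes tested; each point is 1 gene, red and blue mark the 3299 genes called higher and the 2492 called lower, and open circles mark genes named in the text. Plagl1 and Cdx1 lie above 5, Gsg1 lies near -6, and Eif4g2 and Nanog lie near 0.

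Plagl1, an imprinted zinc finger transcription factor, had the largest rise among genes well above background on all 6 arrays. It read -0.90, -0.35 and -0.64 in LIF and 5.07, 4.70 and 4.89 in 2i+LIF, a 45.8-fold rise (5.52 ± 0.17 SE; adjusted p = 0.00016). Cdx1, a caudal homeobox factor and Wnt target, read -0.63, 0.12 and -0.59 in LIF and 5.20, 4.80 and 5.15 in 2i+LIF, a 42.8-fold rise. Plagl1 thus went from below the 75th percentile of the array to far above it. So did Cdx1, except that LIF replicate 2 already lay slightly above it. Neither gene overlapped between media. Sp5, described with the Wnt targets, followed. The other large rises were Dmgdh (4.41) and Bhmt2 (4.14), enzymes of betaine and dimethylglycine breakdown, the homeobox gene Crxos (3.99), Pdlim4 (3.89), Fetub (3.84), and the surface proteins Ly6a (3.80) and Ly6c1 (3.71).

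The largest fall among such genes was that of Gdpd5, a glycerophosphodiester phosphodiesterase, at 2.32, 2.06 and 2.02 in LIF and -1.70, -1.60 and -1.85 in 2i+LIF. That is 14.4-fold lower (-3.85 ± 0.11 SE; adjusted p = 0.00016). Prkca, a protein kinase C, was 13.3-fold lower. Tal1, a basic helix-loop-helix factor known from blood development, read 1.10, 0.96 and 1.00 in LIF and -2.45, -2.66 and -2.76 in 2i+LIF. Its fall was 12.5-fold (-3.65 ± 0.10 SE; adjusted p = 0.00016), and that of the related factor Lyl1 was 7.98-fold. Fgf1 (-3.34), Nfatc2 (-3.00), Gm5091 (-2.99), the endothelial nitric oxide synthase Nos3 (-2.92), the calcitonin gene Calca (-2.86) and Cplx1 (-2.80) completed the group.

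Some genes had signal in 1 medium only, so their change is given as an estimated lower bound on the difference of group means. It is the mean of the bright group against, per array, the lowest signal well above background or the probe's own signal, whichever is higher. A single array can differ by less. Gsg1 had no 2i+LIF array well above background (mean 0.30 in LIF, -5.68 in 2i+LIF), at least 25.1-fold lower (adjusted p = 0.0002). The prodynorphin gene Pdyn was at least 12.5-fold lower, Zeb2 at least 5.82-fold and the neuronal growth protein gene Gap43 at least 4.39-fold. Zeb2 encodes a repressor of E-cadherin and a driver of exit from pluripotency. In the other direction 2510009E07Rik was at least 8.94-fold higher in 2i+LIF, Bst1 at least 7.99-fold, 4930565N06Rik at least 6.46-fold and Adgrl2 at least 5.84-fold, with no LIF array well above background.

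MEK inhibition was read from the ERK feedback inhibitors and ETS factors, whose transcription ERK drives. Of 13 tested, 7 fell and none rose, with a median of -0.59, against 12.0% of all genes that fell. Dusp6, the ERK phosphatase, read 4.78, 4.43 and 4.83 in LIF and 2.98, 2.55 and 3.02 in 2i+LIF, 3.56-fold lower (-1.83 ± 0.17 SE; adjusted p = 0.0016). Spry4, a feedback inhibitor of receptor tyrosine kinases, read 0.15, -0.74 and 0.16 in LIF and -2.02, -2.68 and -1.56 in 2i+LIF, 3.85-fold lower (adjusted p = 0.014, but 0.062 with the row as a block and 0.057 without LIF replicate 1). The media did not overlap for either gene. Phlda1 fell (-0.85; adjusted p = 0.0038), as did the ETS factors Etv1 (-1.14; adjusted p = 0.021, 0.075 with the row, 0.077 without LIF replicate 1) and Etv4 (-0.70; adjusted p = 0.011, 0.057 with the row). Etv5 differed by -0.07 (adjusted p = 0.81) and Spry2 by -0.16 (adjusted p = 0.64), and their media overlapped. In the fit with the row 3 of the 7 calls remained, and 3 falls were left without LIF replicate 1, against 5 to 7 without any other array.

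Immediate early genes, which ERK switches on within minutes in many cells, had 3 rises and 1 fall among 13 tested. These are 23.1% and 7.69%, against 15.8% and 12.0% of all genes. Egr1 was the one that fell, from -2.20, -2.0 and -2.08 in LIF to -3.13, -3.09 and -2.98 in 2i+LIF (1.96-fold; -0.97 ± 0.08 SE; adjusted p = 0.0011). After normexp background correction its difference was -0.50. Fos differed by 0.33 (adjusted p = 0.47). Atf3 rose by 0.90 (adjusted p = 0.018, 0.066 with the row, 0.068 without LIF replicate 1) and Jun by 0.85 (adjusted p = 0.049, 0.051 with the row, 0.14 without LIF replicate 1). With the row as a block, or without LIF replicate 1 or 3, the list had no rise. With replicate number as a block 2 members fell. Junb, named after its values were seen, read -3.12, -2.99 and -1.69 in LIF and -3.67, -3.63 and -3.86 in 2i+LIF; its difference of -1.12 was not called (adjusted p = 0.078) but was with the row as a block (-2.03; adjusted p = 0.0056).

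Upstream of ERK, Fgf4, the ligand that drives ERK in these cells, differed by -0.18 (adjusted p = 0.14), and of 10 FGF ligands and receptors tested 3 rose (30.0%, against 15.8% of all genes) and none fell; the call of Fgf8 alone remained with the row as a block. Fgf5, an epiblast ligand, rose from -3.85, -4.23 and -3.56 to -3.15, -1.96 and -2.36 (1.39 ± 0.33 SE; adjusted p = 0.029, but 0.2 with the row and 0.089 without 2i+LIF replicate 3). After normexp correction its difference was 0.77. Fgf8 rose by 0.51 and Fgfr1 by 0.34 (adjusted p = 0.022, 0.15 with the row, 0.079 without 2i+LIF replicate 1). Of the 26 members of the Ras and MAPK cascade 5 rose and 2 fell, shares of 19.2% and 7.69%, near those of all genes, and none kept its call with the row as a block. Sos1, the exchange factor that loads Ras, differed by -0.57 (adjusted p = 0.071, 0.025 with replicate number as a block), and Map3k3 fell by 0.40 on the log2 scale (adjusted p = 0.015, 0.12 with the row, 0.058 without 2i+LIF replicate 1).

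GSK3 inhibition was read from target genes of Wnt and beta-catenin. Of 15 tested, 9 rose and 1 fell, with a median of 0.65, against 15.8% of all genes that rose. 7 of those rises remained with the row as a block, and 8 or 9 when 1 array was left out. Of the 14 members well above background on all 6 arrays 8 rose. The promoter sequences of the 2 leading targets with an entry in the table, and of Tnfrsf19, are shown because they carry or lack CTTTGA, the core recognised by the LEF and TCF factors that beta-catenin binds. They are RefSeq windows on build GRCm38.p6 from 250 bases before to 50 bases after a transcription start, on the strand of the gene, in lower case with CTTTGA or its reverse complement TCAAAG in capitals. The Sp5 window (chr2:70474673-70474972, plus strand) holds CTTTGA starting 204 and 104 bases before the start. The Axin2 window (chr11:108920099-108920398, plus strand) has no match. The Tnfrsf19 window shown (chr14:61037938-61038237, minus strand) is the second of its 2 listed starts and has 1 match on the opposite strand, starting 201 bases before the start.
Sp5: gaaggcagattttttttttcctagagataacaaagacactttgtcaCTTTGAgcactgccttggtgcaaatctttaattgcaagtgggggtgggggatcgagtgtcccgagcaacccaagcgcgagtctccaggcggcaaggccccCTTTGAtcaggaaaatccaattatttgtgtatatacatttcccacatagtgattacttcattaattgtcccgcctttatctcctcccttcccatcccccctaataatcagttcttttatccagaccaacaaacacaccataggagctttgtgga
Axin2: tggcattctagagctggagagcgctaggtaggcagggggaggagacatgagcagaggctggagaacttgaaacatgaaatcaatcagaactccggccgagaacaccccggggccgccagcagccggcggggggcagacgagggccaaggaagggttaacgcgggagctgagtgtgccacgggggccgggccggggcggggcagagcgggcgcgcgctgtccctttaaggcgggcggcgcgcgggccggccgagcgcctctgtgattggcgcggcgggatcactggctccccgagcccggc
Tnfrsf19: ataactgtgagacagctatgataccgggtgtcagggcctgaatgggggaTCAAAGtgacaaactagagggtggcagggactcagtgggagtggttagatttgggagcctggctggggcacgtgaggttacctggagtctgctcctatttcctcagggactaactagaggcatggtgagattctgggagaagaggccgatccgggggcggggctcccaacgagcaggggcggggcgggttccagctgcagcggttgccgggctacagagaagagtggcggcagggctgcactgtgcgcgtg

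Of the 9 rising targets 6 had windows in the table, 9 windows in all, and 2 of those held the motif on either strand; the windows of Rnf43, Ascl2 and Tcf7 held none. Of all 32851 windows of the same length 16% hold it. A match is a description of these letters and not a binding site.

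Sp5, a zinc finger factor induced directly by Wnt and carrying the pair of matches above, read -2.97, -2.71 and -3.19 in LIF and 2.14, 1.01 and 2.07 in 2i+LIF, a 26.0-fold rise (4.70 ± 0.33 SE; adjusted p = 0.00072). Axin2, the negative feedback scaffold of the pathway, read -3.06, -3.83 and -3.59 in LIF and -0.67, -0.05 and -0.71 in 2i+LIF, an 8.07-fold rise (3.01 ± 0.26 SE; adjusted p = 0.0013). Rnf43, a ubiquitin ligase that removes Frizzled receptors, rose by 2.89 (adjusted p = 0.008; 1.35 after normexp correction), with 1 of the 3 LIF arrays well above background. Every array in 2i+LIF lay above every LIF array for these 3 genes. Ascl2, a basic helix-loop-helix factor, rose from 0.22, 0.84 and -0.07 to 1.87, 2.28 and 1.94 (3.25-fold; adjusted p = 0.0063). Tcf7, a DNA-binding partner of beta-catenin, rose from 0.58, 0.67 and 0.62 to 1.41, 1.36 and 1.42 (1.71-fold; adjusted p = 0.001). The remaining rises were Tnfrsf19 at 0.67 (adjusted p = 0.0064, 0.052 with the row), Apcdd1 at 0.65 (adjusted p = 0.024, 0.055 with the row, 0.079 without 2i+LIF replicate 1) and Znrf3 at 0.63. Lef1, another partner of beta-catenin that is also an epiblast marker, went the other way: 4.17, 3.44 and 3.97 in LIF and 1.68, 0.72 and 1.61 in 2i+LIF, 5.74-fold lower (-2.52 ± 0.31 SE; adjusted p = 0.0038). Cdx2 did not pass the filter on dim probes, and T (Brachyury) had no probe with a value on all 6 arrays, so neither was tested.

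Ctnnb1, which encodes beta-catenin, differed by -0.01 (adjusted p = 0.95), Gsk3b by 0.12 (adjusted p = 0.43), and Tcf7l1, the repressor that GSK3 inhibition relieves, by -0.28 (adjusted p = 0.23, 0.028 with replicate number as a block). Of 22 components tested 3 rose and 1 fell (2 with replicate number as a block), or 13.6% and 4.55%, against 15.8% and 12.0% of all genes. Wls, which escorts Wnt proteins to the surface, rose by 2.52 (adjusted p = 0.02, 0.063 without 2i+LIF replicate 1). Its difference was 3.78 within the second row and 1.19 after normexp correction. The receptor gene Fzd10 rose by 1.10 (adjusted p = 0.0096, 0.089 with the row), and Fzd5 fell by 1.13 on the log2 scale. Of the 8 ligands tested Wnt5b rose by 2.17 and Wnt9a by 1.26 (0.81 after normexp correction), while Wnt10a fell by 0.71 on the log2 scale (0.28 after normexp correction) and Wnt6 by 0.69 (adjusted p = 0.025, 0.17 with the row, 0.081 without 2i+LIF replicate 3). Wnt5a also fell, was not well above background on any 2i+LIF array and was at least 1.41-fold lower (adjusted p = 0.0073, 0.064 with the row).

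**Figure D2:**
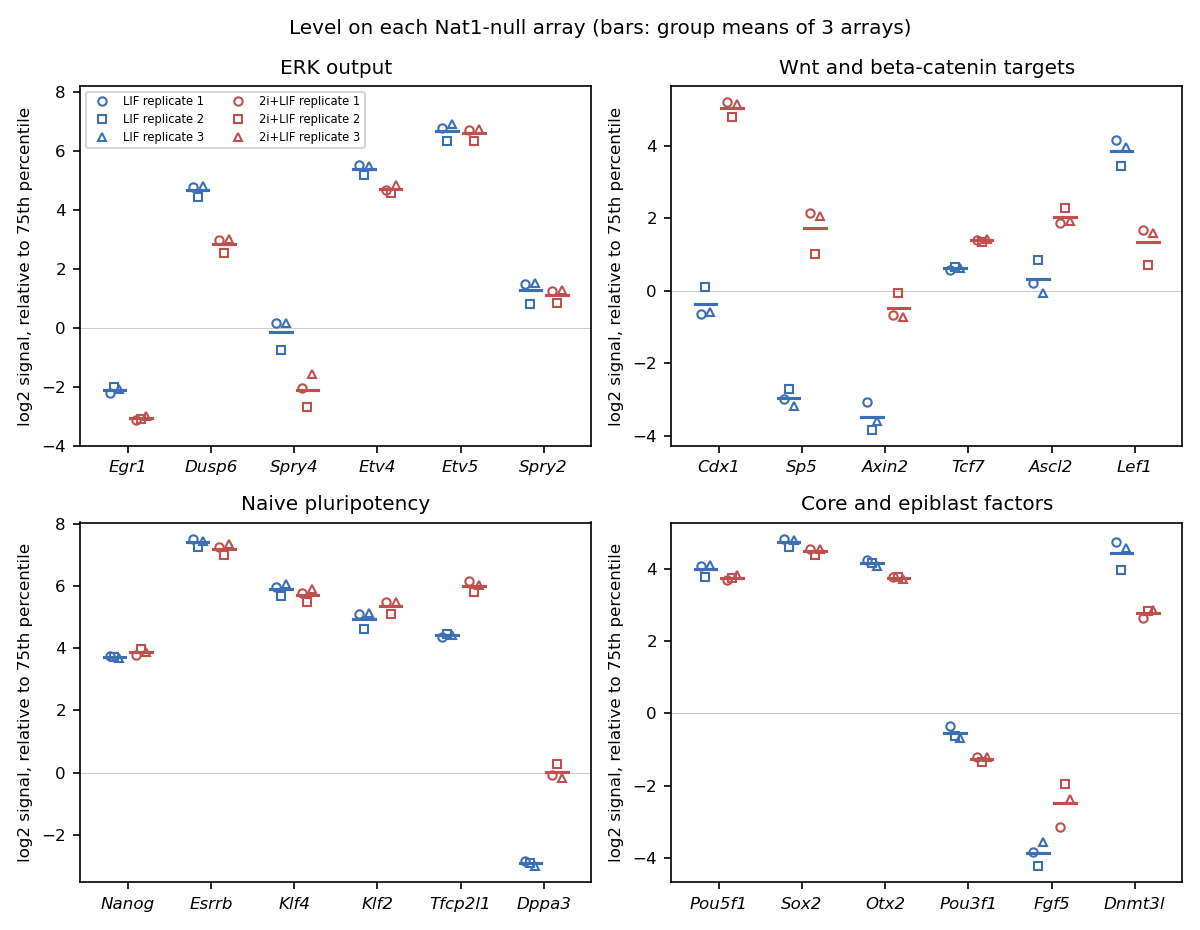
Signal (log2, with the 75th percentile of each array set to 0) of selected genes on each of the 6 Nat1-null arrays; blue marks LIF, red 2i+LIF, symbols the replicate number and bars the mean of 3 arrays. Cdx1, Sp5, Axin2, Tfcp2l1 and Dppa3 are higher and Dusp6, Spry4, Lef1 and Dnmt3l lower on every 2i+LIF array, while the means of Nanog, Esrrb, Klf4 and Etv5 lie close together.

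Of 20 naive pluripotency genes tested, 5 rose and 2 fell, with a median of 0.00, against 15.8% and 12.0% of all genes; with replicate number as a block 6 rose and 6 fell. Of these calls 4 rises and no fall remained with the row as a block, and no member fell with 1 array left out, except 6 without LIF replicate 2. Dppa3 (Stella), an oocyte and germ line protein that protects against DNA demethylation in the zygote, read -2.83, -2.89 and -3.00 in LIF and -0.08, 0.28 and -0.17 in 2i+LIF, a 7.56-fold rise (2.92 ± 0.13 SE; adjusted p = 0.0003). Spic, an ETS-related factor, read -1.98, -2.25 and -1.89 in LIF and 0.24, -0.03 and 0.34 in 2i+LIF (4.67-fold; adjusted p = 0.00055). Tfcp2l1, a naive factor driven by LIF and by relief of Tcf7l1, read 4.36, 4.46 and 4.44 in LIF and 6.14, 5.81 and 6.03 in 2i+LIF (2.98-fold; adjusted p = 0.00058). None of these 3 genes overlapped between media. Tdh, a threonine catabolism enzyme abundant in mouse embryonic stem cells, rose by 1.07 (adjusted p = 0.022, 0.17 with the row, 0.074 without 2i+LIF replicate 3).

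Nr5a2, an orphan nuclear receptor that drives Pou5f1, was the fifth to rise, by 0.44 (adjusted p = 0.0054). Most other naive factors were not called. Nanog read 3.75, 3.70 and 3.69 in LIF and 3.79, 3.99 and 3.88 in 2i+LIF, a difference of 0.17 (adjusted p = 0.13), and -0.02 with no scaling. Esrrb, a direct target of Tcf7l1 repression, differed by -0.21 (adjusted p = 0.23), Klf4 by -0.18 (adjusted p = 0.4) and Tbx3 by 0.12 (adjusted p = 0.52). Klf2 differed by 0.41 (adjusted p = 0.14, 0.014 with replicate number as a block) and Klf5 by -0.37 (adjusted p = 0.19, 0.026 with replicate number as a block). Zfp42 (Rex1), a marker of the naive state, read 7.06, 6.58 and 7.01 in LIF and 6.30, 6.21 and 6.47 in 2i+LIF, and fell by 0.55 on the log2 scale (adjusted p = 0.042, 0.11 with the row, 0.12 without LIF replicate 1). Prdm14, a repressor of FGF signalling and of DNA methylation genes, fell by 0.27 (adjusted p = 0.037, 0.14 with the row, 0.12 without LIF replicate 1).

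Of 20 general pluripotency genes tested 1 rose and 8 fell (5% and 40%, against 15.8% and 12.0% of all genes), with a median of -0.53. With no scaling 13 fell, and with the row as a block 3 did. Without LIF replicate 2 there were 15 falls, and without any other array 3 to 5. Mycn, a Myc family factor of stem cells, fell from 4.36, 3.93 and 4.41 to 3.21, 2.93 and 3.20 (-1.12 ± 0.16 SE; adjusted p = 0.0054). Utf1, a chromatin factor, fell by 1.04 on the log2 scale and Dppa4 by 0.76 (adjusted p = 0.014, 0.057 without LIF replicate 1). Pou5f1 (Oct4) differed by -0.23 (adjusted p = 0.15) and Sox2 by -0.24 (adjusted p = 0.093, 0.039 with replicate number as a block). Of the Myc network 4 of 10 fell and none rose: Mycn and the Myc antagonists Mxd4 (-1.46), Mxd3 (-0.69) and Mxd1 (-0.59; adjusted p = 0.022, 0.13 with the row, 0.078 without LIF replicate 1). Myc read -0.13, -1.97 and 0.04 in LIF and -1.75, -2.94 and -1.50 in 2i+LIF, a difference of -1.37 (adjusted p = 0.16, 0.0091 with replicate number as a block). Replicate 2 was the lowest in each medium for Myc.

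Genes of the formative and primed epiblast, the state that follows naive pluripotency, included 6 falls and 3 rises among 16 tested (median -0.46). These are 37.5% and 18.8%, against 12.0% and 15.8% of all genes. Beside Lef1 the falls were led by Tcf15, a formative helix-loop-helix factor (4.75, 4.53 and 4.80 against 3.20, 3.24 and 3.36; -1.43 ± 0.10 SE; adjusted p = 0.0007), Zic2 (-1.40) and Sox4 (-1.39). Pou3f1 (Oct6) fell by 0.70 on the log2 scale (adjusted p = 0.0072, 0.072 with the row), and Otx2, which directs enhancers in the primed state, by 0.40 (adjusted p = 0.01, 0.096 with the row). The rises were Fgf5, above, Dnmt3b and the epithelial factor Grhl2 (0.54; adjusted p = 0.0049, 0.053 with the row).

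Of 18 DNA methylation genes 3 rose and 3 fell (5 with replicate number as a block), or 16.7% each way, near the 15.8% and 12.0% of all genes. No rise and 1 fall remained with the row as a block. Leaving out 1 array gave 0 to 2 rises (0 without 2i+LIF replicate 3, LIF replicate 1 or LIF replicate 3) and 1 to 6 falls (1 without 2i+LIF replicate 3, 6 without LIF replicate 2). Dnmt3l, the cofactor of the de novo methyltransferases, read 4.74, 3.98 and 4.59 in LIF and 2.63, 2.83 and 2.85 in 2i+LIF, 3.17-fold lower (-1.67 ± 0.21 SE; adjusted p = 0.0037). Dnmt3b, a de novo methyltransferase, rose by 0.64 (adjusted p = 0.033, 0.22 with the row, 0.1 without 2i+LIF replicate 3), and Dnmt3a differed by -0.06 (adjusted p = 0.87). Tet1, which oxidises methylcytosine, fell by 0.48 on the log2 scale (adjusted p = 0.046, 0.13 with the row, 0.13 without LIF replicate 1). Of the 23 germ line genes 4 rose (17.4%, against 15.8% of all genes) and 6 fell; the 4 rises but none of the falls remained with the row as a block, and leaving out 1 array gave 2 to 6 falls (2 without 2i+LIF replicate 3 or LIF replicate 1). The X-linked homeobox genes Rhox6 (10.4-fold; adjusted p = 0.00083) and Rhox9 (7.97-fold; adjusted p = 0.00088) led the rises; they are close copies, so their probes may share signal.

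Genes of cytokine and growth factor pathways outside the inhibitors' direct targets were mixed. Of 15 genes of LIF and STAT3 signalling 4 rose and 3 fell (26.7% and 20%, against 15.8% and 12.0% of all genes). Beside Tfcp2l1, Gadd45g rose by 1.63 (adjusted p = 0.03, 0.074 with the row, 0.099 without LIF replicate 1) and Bcl3 by 0.73 (adjusted p = 0.0066, 0.067 with the row). Socs3, the STAT3 feedback inhibitor, differed by -0.12 (adjusted p = 0.4). The receptor gene Lifr fell by 0.78 on the log2 scale (adjusted p = 0.016, 0.068 with the row, 0.061 without LIF replicate 1) and Cish by 0.73. Of 15 Nodal and TGF-beta genes 1 rose (2 with replicate number as a block) and 3 fell, or 6.67% and 20%. The activin subunit gene Inhbb read 6.19, 5.74 and 6.21 in LIF and 4.90, 4.47 and 4.93 in 2i+LIF (-1.28 ± 0.19 SE; adjusted p = 0.006). Nodal differed by 0.10 (adjusted p = 0.59) and its antagonist gene Lefty1 by -0.28 (adjusted p = 0.21), while Lefty2 rose by 1.23 (adjusted p = 0.012, 0.051 with the row). In the BMP list 3 of 13 rose and 1 fell (23.1% and 7.69%), or 5 and 3 with replicate number as a block. Bmp7 rose from -1.08, -0.26 and -1.29 to 1.37, 1.78 and 1.41 (2.40 ± 0.29 SE; adjusted p = 0.0033), Msx2, a homeobox target of BMP, rose by 2.08, and Id1, the classical BMP target, fell by 0.84 on the log2 scale (adjusted p = 0.028, 0.092 with the row, 0.095 without LIF replicate 1).

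Hox genes, which pattern the body axis and are held silent by Polycomb in stem cells, rose in 13 of 24 tested (54.2%, against 15.8% of all genes). None fell, and the median was 0.82. All 13 rises remained with the row as a block, and 12 to 15 genes rose when 1 array was left out. With no scaling 13 rose and 2 fell. Hoxa5 was called lower with the row as a block (-1.06 within the second row, adjusted p = 0.037; -0.40 and 0.36 over all 6 arrays). 15 of the 39 listed Hox genes were not tested, and 17 of the 24 tested passed the background test on each of the 6 arrays, 10 of them rising. The cluster counts included 2 of 5 in Hoxb, 6 of 7 in Hoxc and 0 of 2 in Hoxd. Hoxc6 read -4.57, -4.01 and -5.38 in LIF, with 2 of those arrays well above background, and -0.99, -0.97 and -1.13 in 2i+LIF (3.62 ± 0.33 SE; adjusted p = 0.0016; 2.27 after normexp correction). Hoxc9 (3.1), Hoxc11 (2.85), Hoxa10 (2.34), Hoxa11 (2.27), Hoxa7 (2.19), Hoxc4 (2.13), Hoxb13 (1.91), Hoxa9 (1.87), Hoxc10 (1.57), Hoxb9 (1.12) and Hoxc13 (0.69) also rose. In the Hoxa cluster all tested members from Hoxa7 to Hoxa11 were called, and Hoxa2, Hoxa3, Hoxa4, Hoxa5 and Hoxa6, between -0.59 and 0.14, were not. Of 30 Polycomb genes 6 rose and 3 fell (shares near those of all genes, 15.8% and 12.0%), and 3 rises and 1 fall remained with the row as a block; Phc1 fell by 1.01 on the log2 scale.

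**Figure D3:**
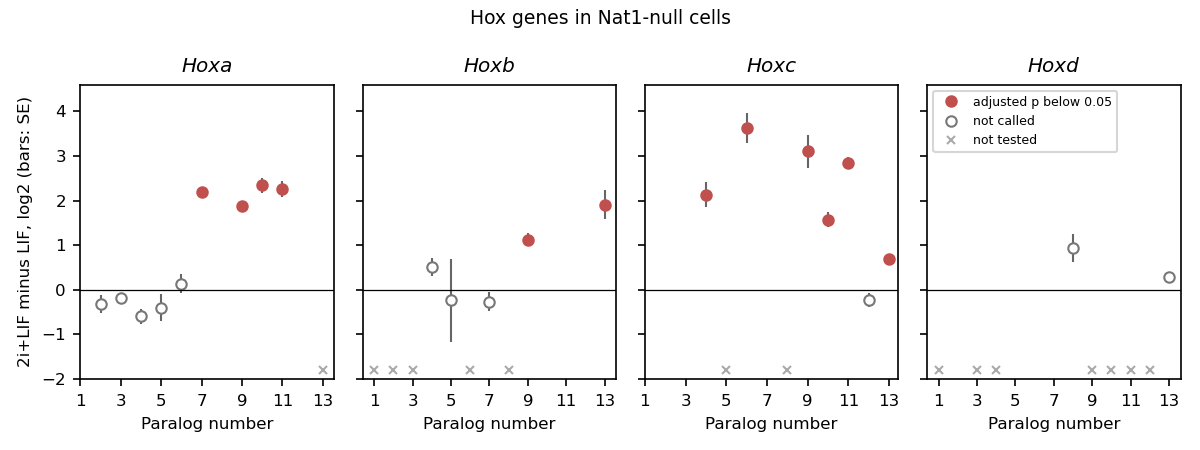
Difference between media (2i+LIF minus LIF, log2) of the Hox genes reported here in Nat1-null cells by cluster and paralog number; points are 1 gene each, bars are SE, red marks genes called and crosses mark genes not tested. Hoxa7 to Hoxa11 and most tested Hoxc genes lie above 1, and Hoxa2 to Hoxa6 lie near or below 0.

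Primitive streak and mesoderm genes rose in 5 of 11 tested (45.5%, against 15.8% of all genes), and none fell. Besides Cdx1 and Fgf8 these were Evx1 (2.33; 1.23 after normexp correction), Gsc (-1.04, -0.75 and -1.30 against 1.00, 0.71 and 0.85; 1.88 ± 0.16 SE; adjusted p = 0.0011) and Eomes. Trophoblast genes rose in 8 of 13 tested (61.5%), with none falling and a median of 1.10. With the row as a block 6 of those rises remained. Of the 11 trophoblast genes well above background on all 6 arrays 7 rose, and of the 10 such streak and mesoderm genes 4 rose. Eomes, a T-box factor of trophoblast and streak, read -0.16, 0.28 and -0.46 in LIF and 1.84, 1.63 and 1.91 in 2i+LIF (3.75-fold; adjusted p = 0.0021). Gata3 rose by 1.83 (0.92 after normexp correction), Ascl2 as above, and the keratin gene Krt19 by 1.76 (adjusted p = 0.021, 0.051 with the row, 0.076 without LIF replicate 1). Cdx2 and Tpbpa, which define trophoblast, passed the background test on no array. The summed signal of the trophoblast markers was 1.87 to 3.26 in LIF and 7.65 to 8.63 in 2i+LIF. Most of that sum is signal of Eomes and Ascl2, which are also on the streak and Wnt target lists, so it is not separate evidence. Whether a few differentiated cells contribute was not tested. In bulk RNA fewer cells of a type and less RNA per cell cannot be told apart.

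Neural genes fell in 8 of 13 tested (61.5%, against 12.0% of all genes) and rose in 1 (3 with replicate number as a block), with a median of -0.42. With the row as a block, or without LIF replicate 1, 3 falls remained. Of the 10 members well above background on all 6 arrays 6 fell and 1 rose. Pax6, a neural and eye factor, read -2.48, -2.74 and -2.40 in LIF and had no 2i+LIF array well above background (mean -5.70), at least 3.50-fold lower (adjusted p = 0.00032). Sox21 read 0.87, 0.05 and 0.99 in LIF and -1.91, -1.62 and -1.51 in 2i+LIF, 4.99-fold lower. Sox1, the earliest neural marker, fell from 1.40, 1.27 and 1.33 to -0.04, -0.17 and -0.34 (-1.52 ± 0.10 SE; adjusted p = 0.00057). Nefl, a neurofilament gene, rose by 1.90. The summed signal of the neural markers, Sox1 and Pax6 among them, was 3.24 to 3.46 in LIF and 1.64 to 1.96 in 2i+LIF. Fabp7, Neurog2 and Olig2 passed the background test on no array.

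Endoderm genes fell in 6 of 15 tested and rose in 3 (40% and 20%, against 12.0% and 15.8% of all genes). Cubn and Sox7 passed the filter only through LIF, where they are high. Of the 12 members well above background on all 6 arrays 4 fell and 2 rose. Over all such genes 10.9% fell and 16.3% rose. Foxa2 rose by 1.72 (adjusted p = 0.0011) and Gata4 by 0.87 (adjusted p = 0.035, 0.1 with the row, 0.11 without LIF replicate 1). Cubn, an endocytic receptor of visceral endoderm, had no 2i+LIF array well above background and was at least 7.44-fold lower (mean -1.45 in LIF, -4.87 in 2i+LIF; adjusted p = 0.00036), and Sox7 was at least 1.45-fold lower (adjusted p = 0.0037). The basement membrane collagen gene Col4a1 read 1.51, 2.17 and 1.41 in LIF and -0.58, -0.56 and -0.47 in 2i+LIF (4.69-fold lower; adjusted p = 0.0016), and Col4a2 fell by 1.74 on the log2 scale. The summed signal of the primitive endoderm markers, which include Cubn, Sox7, Foxa2 and Gata4, was 2.78 to 5.05 in LIF and 1.73 to 2.42 in 2i+LIF. Of the 6 of these markers tested 2 rose and 3 fell. Of the adhesion genes 4 of 13 rose and 2 fell (30.8% and 15.4%, against 15.8% and 12.0% of all genes). Rises included the claudin gene Cldn7 by 1.38, Ocln by 1.01 (adjusted p = 0.025, 0.082 without LIF replicate 1) and Cdh1, E-cadherin, by 0.68. The fall of Zeb2 is given above.

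Genes of the 2-cell embryo rose in 5 of 11 tested (45.5%, against 15.8% of all genes), with 1 fall, and in 8 with replicate number as a block. Pramel6 and Pramel7 passed the filter only through 2i+LIF, where they are high. Of the 8 members well above background on all 6 arrays 3 rose and 1 fell. Over all such genes 16.3% rose and 10.9% fell. The fall was that of Zfp352 (-1.07, adjusted p = 0.0021), and Usp17la differed by -0.01 (adjusted p = 0.92). Pramel6 and Pramel7 had no LIF array well above background and were at least 7.96-fold (adjusted p = 0.007) and at least 3.17-fold (adjusted p = 0.0031) higher in 2i+LIF. These bounds are for the means of 3 arrays. The difference of Pramel6 was 3.15, or 2.09 within the second row, which is below its bound. Zscan4f (0.94) and Zscan4c (0.87) and Zscan4a (0.81) also rose, and each belongs to a family of close copies whose probes may share signal. Of 18 imprinted genes tested 2 rose and 4 fell (11.1% and 22.2%, against 15.8% and 12.0% of all genes). Beside Plagl1, Igf2r rose by 0.64 (adjusted p = 0.012, 0.053 with the row). Mest, a paternally expressed hydrolase gene, fell from 2.22, 1.76 and 2.19 to 0.67, 0.62 and 0.82 (-1.35 ± 0.14 SE, adjusted p = 0.0023). Peg10 fell by 0.50 on the log2 scale (adjusted p = 0.027, 0.16 with the row, 0.054 with replicate number as a block, 0.079 without 2i+LIF replicate 2).

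Of 24 p53 target genes 11 rose (45.8%, against 15.8% of all genes) and 1 fell (2 with replicate number as a block), with a median of 0.37. After quantile normalisation 8 rose, and 4 did with no scaling or with the row as a block. Cdkn1a (p21), which inhibits cyclin-dependent kinases, read 2.12, 2.31 and 2.04 in LIF and 3.76, 3.74 and 3.64 in 2i+LIF (2.94-fold; adjusted p = 0.00048). Plk2 rose by 1.10, Phlda3 by 0.99 and Apaf1 by 0.55. The G1 list had 5 rises and 4 falls among 23 (21.7% and 17.4%, against 15.8% and 12.0% of all genes). Its cyclin gene Ccnd2 read -1.26, -1.90 and -1.30 in LIF and -3.32, -3.77 and -3.42 in 2i+LIF, 4.05-fold lower (adjusted p = 0.0022). After normexp correction the log2 difference of Ccnd2 was -1.16. Cdkn2b rose by 1.25 (adjusted p = 0.029, 0.081 with the row, 0.097 without LIF replicate 1). The S phase and mitosis list had 5 rises and 1 fall among 24 (20.8% and 4.17%, against 15.8% and 12.0% of all genes). Mcm4 of the replicative helicase rose by 0.61.

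Metabolic genes were counted against the 15.8% and 12.0% of all genes that rose and fell. Glycolysis genes rose in 9 of 24 and fell in 2, cholesterol synthesis genes in 10 of 24 with 1 fall, and fatty acid synthesis genes in 5 of 10 with none. These counts depended on the scaling: with no scaling 3, 2 and 4 rose. Of the rises 4, 2 and 2 remained with the row as a block. Without LIF replicate 1 the glycolysis and cholesterol rises were 2 and 3, and without LIF replicate 2 they were 12 and 15. Pfkm, a phosphofructokinase, rose by 1.44 and the hexokinase gene Hk1 by 0.92; Ebp, a sterol isomerase, rose by 0.87; the desaturase gene Scd1 rose from 0.20, 0.83 and 0.30 to 1.65, 2.06 and 1.86 (adjusted p = 0.0052) and Me1, malic enzyme, by 1.39. Of 29 oxidative phosphorylation genes 6 rose (20.7%) and 1 fell, and none rose with no scaling or with the row as a block. Of 18 hypoxia genes 2 rose and 2 fell (8 rises with replicate number as a block). Ak4, a mitochondrial adenylate kinase, rose by 1.16, and Epas1 (HIF2-alpha) fell by 1.53 on the log2 scale.

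Because Nat1 is a translation factor, genes of protein synthesis and of the stress responses that control it were also counted. Of 76 cytosolic ribosomal protein genes 25 rose, none fell and the median was 0.21; with no scaling, with quantile normalisation or with the row as a block none was called in either direction, and the unscaled median was 0.01. Without 2i+LIF replicate 1 or LIF replicate 1 none rose, and without any other array 1 to 15 did. Of 39 initiation factor genes 13 rose and 1 fell, against 3 rises with no scaling and 1 with the row as a block. Eif2b5, a subunit of the eIF2B exchange factor, rose by 1.03 (2.75, 2.59 and 2.72 against 3.75, 3.67 and 3.72; adjusted p = 0.00071) and Eif4g3, an eIF4G paralog, fell by 0.94 on the log2 scale (adjusted p = 0.0042). ATF4 and integrated stress response genes fell in 9 of 26 (12.0% of all genes fell) and rose in 3. Of those falls 2 remained with the row as a block, leaving out 1 array gave 4 to 9 (4 without 2i+LIF replicate 1 or LIF replicate 1), and 13 fell with no scaling. Chac1, a glutathione-degrading enzyme, read 3.15, 2.88 and 2.99 in LIF and 1.52, 1.57 and 1.66 in 2i+LIF (-1.42 ± 0.09 SE; adjusted p = 0.00059), whereas Asns, asparagine synthetase, rose by 0.96. Unfolded protein response genes fell in 6 of 22 (27.3%, against 12.0% of all genes) and rose in 2 (1 with replicate number as a block). With the row as a block 2 falls and no rise remained. Leaving out 1 array gave 2 to 7 falls (2 without LIF replicate 1), and 10 fell with no scaling. The falls were led by Derl3 (-1.38), Xbp1 (-0.88; adjusted p = 0.014, 0.053 with the row, 0.056 without LIF replicate 1) and Herpud1 (-0.67).

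Contractile genes rose in 8 of 14 tested (57.1%, against 15.8% of all genes) and fell in 1, with 2 rises left with the row as a block or without 2i+LIF replicate 1 or 3. Ccn1 (1.92) and Ccn2 (1.85), matricellular genes driven by YAP and SRF, were the largest of them, followed by Acta2 (1.27; adjusted p = 0.018, 0.12 with the row, 0.062 without 2i+LIF replicate 3). In the fibroblast list 4 of 10 tested rose (40%) and 1 fell (2 falls with replicate number as a block). Rises included the growth factor receptor gene Pdgfrb by 2.55, Lgals1 by 1.56 and Fn1 by 0.70. Of 9 interferon and antigen presentation genes tested 2 rose (22.2%, against 15.8% of all genes). They were Oas1a by 2.43 and Stat2 by 0.45 (adjusted p = 0.045, 0.098 with the row, 0.13 without LIF replicate 1).

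**Figure D4:**
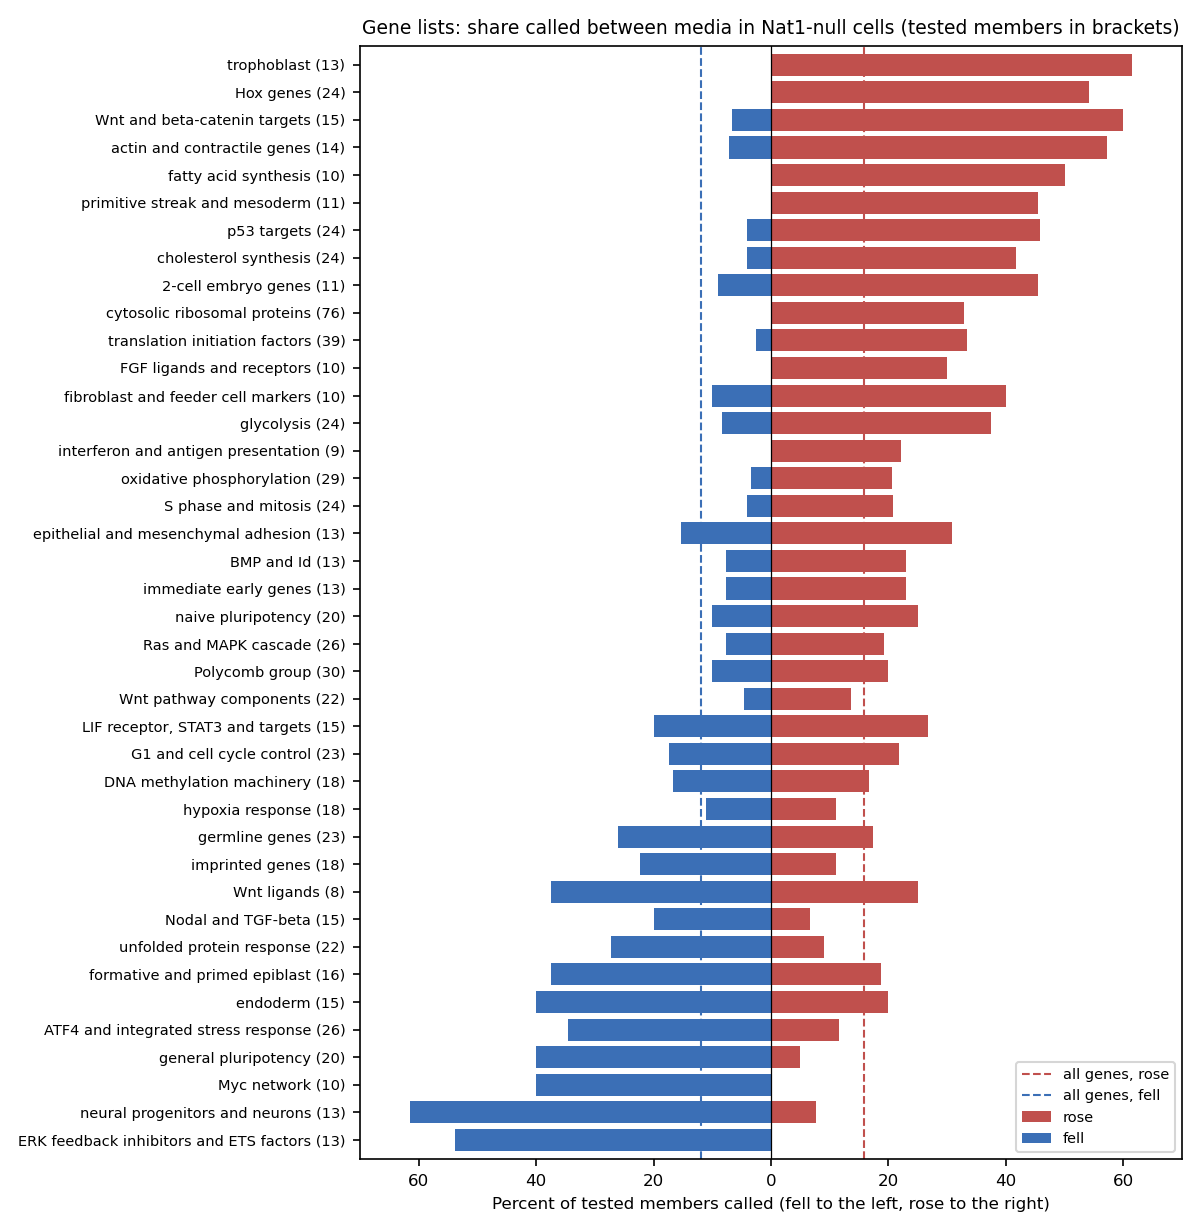
Share of the tested members of each gene list called between media in Nat1-null cells; bars to the right are members that rose, bars to the left members that fell, dashed lines the shares over all genes (15.8% and 12.0%), and the number tested is in brackets. Trophoblast, Hox, Wnt target and contractile lists reach furthest to the right, and the neural and ERK lists furthest to the left.

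**Figure D5:**
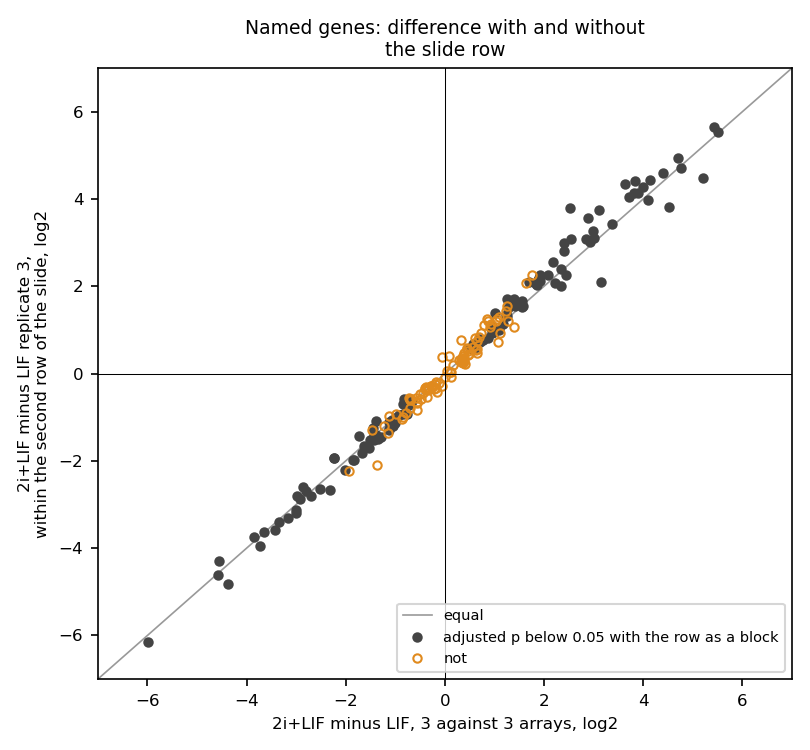
Log2 difference between media within the second row of the slide (mean of the 3 arrays in 2i+LIF minus LIF replicate 3) against the difference of all 3 against 3 arrays, for the named genes; filled points have an adjusted p below 0.05 with the row as a block, and the line marks equal values. Points follow the line, and genes that lose the call lie mostly at small differences. Both axes share LIF replicate 3 and the 2i+LIF arrays, so the closeness to the line does not test the row.

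Last, the response was set against that of wild-type cells by an interaction fitted over all 12 arrays. The wild-type media lie on separate slides, so medium and slide cannot be told apart there. 12150 of 24448 genes (49.7%) were called for a difference between the responses, 5737 (23.5%) higher and 6413 (26.2%) lower in Nat1-null cells. Across 20797 genes the differences between media in Nat1-null and wild-type cells had a Pearson r of 0.139 and a Spearman rho of 0.146, a description across genes, which are not independent replicates; their SD was 0.620 in Nat1-null and 0.839 in wild-type cells. For some targets of the inhibitors the difference between genotypes was not called: Cdx1 moved by 5.42 and 5.95 (interaction adjusted p = 0.11), Spry4 by -1.95 and -1.96 (interaction adjusted p = 0.98) and Lef1 by -2.52 and -2.25 (interaction adjusted p = 0.55). A p above the threshold does not show that they responded equally. The naive factors differed: Nanog moved by 0.17 in Nat1-null and 1.99 in wild-type cells (interaction -1.82; adjusted p = 1.7e-07), Esrrb by -0.21 and 2.30 (-2.51; adjusted p = 6.4e-07) and Tfcp2l1 by 1.58 and 3.90 (-2.32; adjusted p = 3.3e-07). Opposite directions were seen for Dppa3, at 2.92 and -3.98 (6.90; adjusted p = 6.8e-09), and Axin2 moved by 3.01 against 0.02 (2.99; adjusted p = 3.2e-05).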

How the data were processed

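Total RNA of 12 samples was labelled with Cy3 and scanned, per the file headers, with Agilent Feature Extraction 10.7.3.1, and the deposited background-subtracted processed intensity of each of 59305 gene spots was used. A table of log2 values deposited by the authors for the same arrays served only as an alternative. Spots marked as outliers were left out, spots of a probe were averaged, and log2 values were set relative to the 75th percentile of the array. Probes were named through RefSeq accessions: 27656 of 55681 received a symbol. A probe had to pass the background test on each of the 3 arrays of 1 medium or both, and the brightest probe of a gene was kept, which left 20848 genes. The Nat1-null arrays had 49.8% to 63.4% of spots well above background and no saturated spot. Media were compared with limma 3.58.1 (R 4.3.3) on the 6 Nat1-null arrays, two-sided, with Benjamini-Hochberg adjustment; the script was tested on simulated data. The number of arrays limits the precision.

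The members and gene lists were chosen with earlier results of these data known. Genes named are a fixed set of 45 pathway genes, of which Cdx2 and T could not be tested, the 10 genes with the largest rise and the 10 with the largest fall among those called, bright on all arrays and without overlap between media, the 4 largest each way among genes bright in 1 medium only, up to 4 called members of each list, and the 6 highest and lowest for the interaction. Others are the further calls of a list or were chosen after their values were seen; some items are not reported here. Deviations from the group means correlated at 0.184, 0.409 and 0.106 for same-numbered arrays and at -0.313 to 0.174 for other pairs. Only replicate 2 stood clear of the other pairs, so a pairing by number is not shown. Replicate number was fitted as a block as an alternative. Other alternatives were the slide row as a block, no scaling, quantile normalisation, normexp with an offset of 50, no filter, a stricter filter, the mean of a gene's probes, all 12 arrays and each array left out.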

Additional observations from a re-analysis of the deposited data

Results flagged for a closer look

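The response to 2i differed between genotypes by an interaction term (limma over all 12 arrays) for 12150 genes and for the named genes given here. Each value is the log2 difference between media in Nat1-null cells minus that in wild-type cells, with an adjusted p of at most 0.04 for each. The wild-type media lie on separate slides, so slide and medium cannot be told apart on the wild-type side of the contrast.

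Over all genes tested 26.2% had a negative interaction called and 23.5% a positive one. Of 20 naive pluripotency genes 15 had a negative interaction and 3 a positive one, Dppa3 among the latter. Of 20 general pluripotency genes 7 were negative and 2 positive. The named negative ones, with a smaller rise or a fall in Nat1-null cells, were Esrrb -2.51, Tbx3 -2.48, Tfcp2l1 -2.32, Prdm14 -2.24, Klf4 -2.13, Nanog -1.82, Pou5f1 -1.42, Klf5 -1.25, Klf2 -1.20, Sox2 -1.06 and Zfp42 -0.61. Fgf4 (-1.99), the STAT3 feedback gene Socs3 (-1.79), Etv5 (-0.96), Id1 (-0.92), Etv4 (-0.78) and Mycn (-0.49) were also negative. Fgf4 and Socs3 rose in wild-type cells by 1.81 and 1.68.

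Among named genes of the epiblast and of DNA methylation these had positive interactions: Fgf5 6.29, Pou3f1 3.65, Dnmt3b 3.21, Dnmt3l 2.92, Lefty1 2.50 and Otx2 1.32. In wild-type cells these genes were lower in 2i+LIF, Fgf5 by -4.90, Pou3f1 by -4.35 and Dnmt3l by -4.58. Over the whole DNA methylation list, 4 of 18 members were called positive and 7 negative, beside 23.5% and 26.2% of all genes. The immediate early gene Egr1 differed by 4.81, being -5.79 between media in wild-type cells and -0.97 in Nat1-null cells. Myc (2.25), Dusp6 (0.76), Map3k3 (0.50) and Eif4g2 (0.32) were positive as well. Among Wnt targets Sp5 differed by 3.17, Axin2 by 2.99 and Tcf7 by 0.72, with the larger rise in Nat1-null cells.

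The most extreme interactions were these. Acta2 (9.33), Rhox6 (7.59), Acta1 (7.50), Krt18 (7.14), Dppa3 (6.90) and Rhox9 (6.86) had a positive difference between media in Nat1-null cells and a negative one in wild-type cells. For Acta1 the Nat1-null difference was 0.65 (adjusted p = 0.043, 0.23 with the slide row as a block, 0.12 without 2i+LIF replicate 1), and for Acta2 it was 1.27 (adjusted p = 0.018, 0.12 with the row, 0.062 without 2i+LIF replicate 3). At the other end stood Ndufa4l2 (-5.07), Grin2c (-4.96), Tal1 (-4.88), Vax2os (-4.88), Gm9918 (-4.79) and Polr3gl (-4.50). Tal1 rose by 1.23 in wild-type cells and fell by 3.65 in Nat1-null cells, and Ndufa4l2 differed by 5.15 and 0.08.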

How the results depend on the processing

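The count of called genes, 5791, was 9161 with the spread estimated from all 12 arrays (5342 higher, 3819 lower), 2387 with no filter (1208 and 1179) and 2359 with the slide row as a block (1266 and 1093). With no scaling 1327 genes were called higher and 5057 lower, and after quantile normalisation 2401 and 2888. Leaving out 1 array gave 2931 to 7067 calls, 1577 to 3842 higher and 1347 to 3225 lower, the most without LIF replicate 2. Falls of at least 2-fold numbered 457 after normexp correction and 551 among genes well above background on all 6 arrays. With replicate number as a block 7367 genes were called, 5463 of them shared; among the named genes it changed no other call than Klf2, Klf5, Sox2, Sos1, Tcf7l1, Myc and Peg10. The difference between genotypes turned positive with no scaling for Nodal (0.34) and Ctnnb1 (0.27), neither called in the report. The cause was not tested. Of the 187 named genes called, 120 were also called with the slide row as a block and 129 with every single array left out; normexp moved 29 by over 1.5 times, none to the other sign. Signal over background limits dim genes, whose folds are bounds or shrink with normexp.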

Other observations

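The following genes were grouped after their values were seen, so the groups carry no test of their own. Enzymes of betaine and sulphur amino acid breakdown were higher in 2i+LIF in 4 of 5 cases: beside Dmgdh and Bhmt2, Bhmt rose by 2.93 on the log2 scale (adjusted p = 0.0011, limma) and Cdo1, cysteine dioxygenase, by 3.25 (adjusted p = 0.00082), while Gnmt differed by -0.17 (adjusted p = 0.48). All 4 tested gamma crystallin genes, which encode lens proteins, rose: Cryga by 1.99, Crygc by 2.19, Crygd by 2.92 and Cryge by 2.85; they are close copies, so their probes may share signal. Of 6 glutathione transferase genes Gsta3 (3.12), Gstm2 (2.89), Gstm3 (2.19) and Gstm1 (1.77) rose, Gstt1 fell by 2.14 on the log2 scale and Gsta4 differed by 0.11 (adjusted p = 0.23). The metallothionein genes Mt1 and Mt2 rose by 2.01 and 1.14.

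Beside Tal1, Lyl1 and Nos3, the endothelial receptor gene Robo4 fell by 2.16 and the Tal1 partner gene Lmo2 by 0.60 (adjusted p = 0.0091, 0.084 with the slide row as a block), whereas Gata1 differed by 0.02 (adjusted p = 0.91). The summed signal of 5 blood cell markers was 2.20 to 2.33 times the 75th percentile in LIF and 0.264 to 0.960 in 2i+LIF. The 5 include Tal1, the only one called, so the sum is not separate from its fall. Ptprc, Spi1 and Lyz2 were not well above background on any array. The part of blood cells in these falls was not tested. The 2-5A synthetase genes divided: Oas1a and Oas1f rose by 2.43 and 2.37 and Oas2 fell by 2.42.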
